A study of Rattus norvegicus with 54 samples.

Results

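Of 54 bulk RNA-seq libraries from the nucleus accumbens of Long Evans rats, the 9 richest in transcripts of cortical excitatory neurons are described here. They were chosen by measured values: a library's score is the mean of log2(CPM + 1) over Slc17a7, Neurod6 and Tbr1, where CPM are a gene's read counts scaled by the library's total count. The 9 libraries with the highest scores are called cortical-rich here, the 18 with the lowest scores cortical-poor, and 27 lie between. At postnatal day 42 (P42) the series held 9 male and 4 female PAE-VEH libraries, against 9 male and 7 female FCL-VEH libraries. At P90 it held 6 male and 5 female PAE-AAE libraries, against 6 male and 8 female FCL-VEH libraries. PAE stands for prenatal ethanol, FCL for a free-choice liquid diet, VEH for water in adolescence and AAE for adolescent alcohol. P42 brains were taken 24 h after the final adolescent exposure, and P90 brains in adulthood without a challenge. All libraries were made from whole tissue of 1 region, and the labels do not say whether each comes from a separate animal or litter, so p-values measure only the spread between these libraries.

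Excitatory neurons of the cerebral cortex release glutamate, which the transporter encoded by Slc17a7 (VGLUT1) loads into synaptic vesicles. Their identity is set by transcription factors, among them the T-box factor Tbr1 of deep layers and the basic helix-loop-helix factors Neurod2 and Neurod6. The nucleus accumbens consists mostly of GABAergic medium spiny neurons and receives its glutamatergic input as axons, whose cell bodies lie in cortex, amygdala, hippocampus and thalamus. Around it lie the septum, the pallidum, the ventricle wall and olfactory cortex.

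The promoters of the 3 scoring genes are shown because these genes define the score and varied together over the libraries. Each line gives 250 bases before to 50 after a transcript start in RefSeq's table for the rat assembly GRCr8, on the gene's own strand. For Slc17a7 and Tbr1 that start lies inside the gene's span given below, and the Tbr1 window lies wholly within the gene. Capitals mark CAGATG or its reverse complement CATCTG, a form of the E-box that Neurod factors bind. They stand at chr1:104785955-104786254 (+ strand) for Slc17a7, chr4:86180106-86180405 (- strand) for Neurod6 and chr3:66759553-66759852 (+ strand) for Tbr1.
Slc17a7: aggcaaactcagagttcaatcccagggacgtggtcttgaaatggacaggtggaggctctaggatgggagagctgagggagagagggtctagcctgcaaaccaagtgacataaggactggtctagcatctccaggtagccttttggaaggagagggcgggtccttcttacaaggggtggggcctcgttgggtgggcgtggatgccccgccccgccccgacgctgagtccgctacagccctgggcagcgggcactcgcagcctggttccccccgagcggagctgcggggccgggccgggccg
Neurod6: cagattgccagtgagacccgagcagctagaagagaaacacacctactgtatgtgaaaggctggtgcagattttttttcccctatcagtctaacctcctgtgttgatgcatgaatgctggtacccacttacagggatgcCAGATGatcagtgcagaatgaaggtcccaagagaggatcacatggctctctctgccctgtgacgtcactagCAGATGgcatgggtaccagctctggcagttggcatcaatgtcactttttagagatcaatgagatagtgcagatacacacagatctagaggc
Tbr1: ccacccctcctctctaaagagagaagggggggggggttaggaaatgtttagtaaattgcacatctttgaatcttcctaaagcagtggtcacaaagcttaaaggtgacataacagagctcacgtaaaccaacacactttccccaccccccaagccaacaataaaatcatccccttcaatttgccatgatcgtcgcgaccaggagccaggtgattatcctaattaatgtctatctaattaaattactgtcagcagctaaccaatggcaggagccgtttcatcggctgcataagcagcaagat
CAGATG occurred 2 times in the window of Neurod6 and 0 times in those of Slc17a7 and Tbr1. On either strand it occurs in 16.6% of the 33469 rat promoters of this length, so a match is common and is only a description. The wider E-box CANNTG, which includes it, occurred 2, 4 and 1 times in the windows of Slc17a7, Neurod6 and Tbr1, and in 72.1% of all promoters.

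The cortical-rich libraries came from 7 of the 8 groups. They comprised 3 of 24 ethanol-exposed and 6 of 30 FCL-VEH libraries, 4 of 29 at P42 and 5 of 25 at P90, and 6 of 24 female and 3 of 30 male libraries. Only the male PAE-AAE group at P90 held none among its 6. The highest score, 7.41, was that of replicate 6 of the PAE-VEH males at P42. It was followed by replicate 2 of the FCL-VEH females at P90 (6.33), replicate 4 of the PAE-VEH females at P42 (6.24) and replicate 3 of the PAE-AAE females at P90 (5.996). The others were replicate 1 of the FCL-VEH males at P90 (5.94), replicate 6 of the FCL-VEH females at P90 (5.80), replicate 1 of the FCL-VEH males at P42 (5.65), replicate 3 of the FCL-VEH females at P42 (5.39) and replicate 7 of the FCL-VEH females at P90 (5.26). Just outside stood a score of 4.80, a gap of 0.46, and the 18 lowest ran from 1.25 to 2.40 with the next above at 2.46. Total counts were 64.9 to 88.3 M in cortical-rich and 58.8 to 103.5 M in cortical-poor libraries, and these ranges overlapped. The part of depth was not tested. Sex-linked transcripts went against the label in 3 of the 54 libraries, of which none was cortical-rich, 2 lay between and 1 was cortical-poor.

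Slc17a7 (chromosome 1, 104786172 to 104798049) ran from 190.2 to 1087 CPM in the cortical-rich libraries with a median of 359.7, and in the cortical-poor ones from 4.41 to 20.03 CPM with a median of 8.51. Neurod6 (chromosome 4, 86176909 to 86180155) ran from 9.32 to 32.9 CPM with a median of 12.5 in the cortical-rich, and from 0.0485 to 0.928 CPM with a median of 0.396 in the cortical-poor libraries. Tbr1 (chromosome 3, 66758805 to 66769626) ran from 27.7 to 133 CPM with a median of 41.7 in the cortical-rich, and from 0.839 to 6.97 CPM with a median of 3.68 in the cortical-poor libraries. For all 3 the cortical-rich and cortical-poor sets did not overlap, as the choice of libraries made likely. The 27 others lay below the cortical-rich range for each gene and partly within the cortical-poor range, as for Slc17a7 at 13.1 to 142 CPM. Per kilobase of gene length, Slc17a7 was the most abundant of the 3 in the cortical-rich libraries, at a mean of 138 CPM per kb against 10.9 for Tbr1 and 7.71 for Neurod6. The ratio of Slc17a7 to Tbr1 CPM was narrow among the cortical-rich libraries, from 6.25 to 8.63, and wide among the cortical-poor ones, from 0.970 to 14.7. The ratio of Slc17a7 to Neurod6 varied more, from 17.5 to 44.9 in cortical-rich and from 8.94 to 175.5 in cortical-poor libraries. In bulk tissue, more cells of a type and more RNA per cell cannot be told apart.

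**Figure D1:**
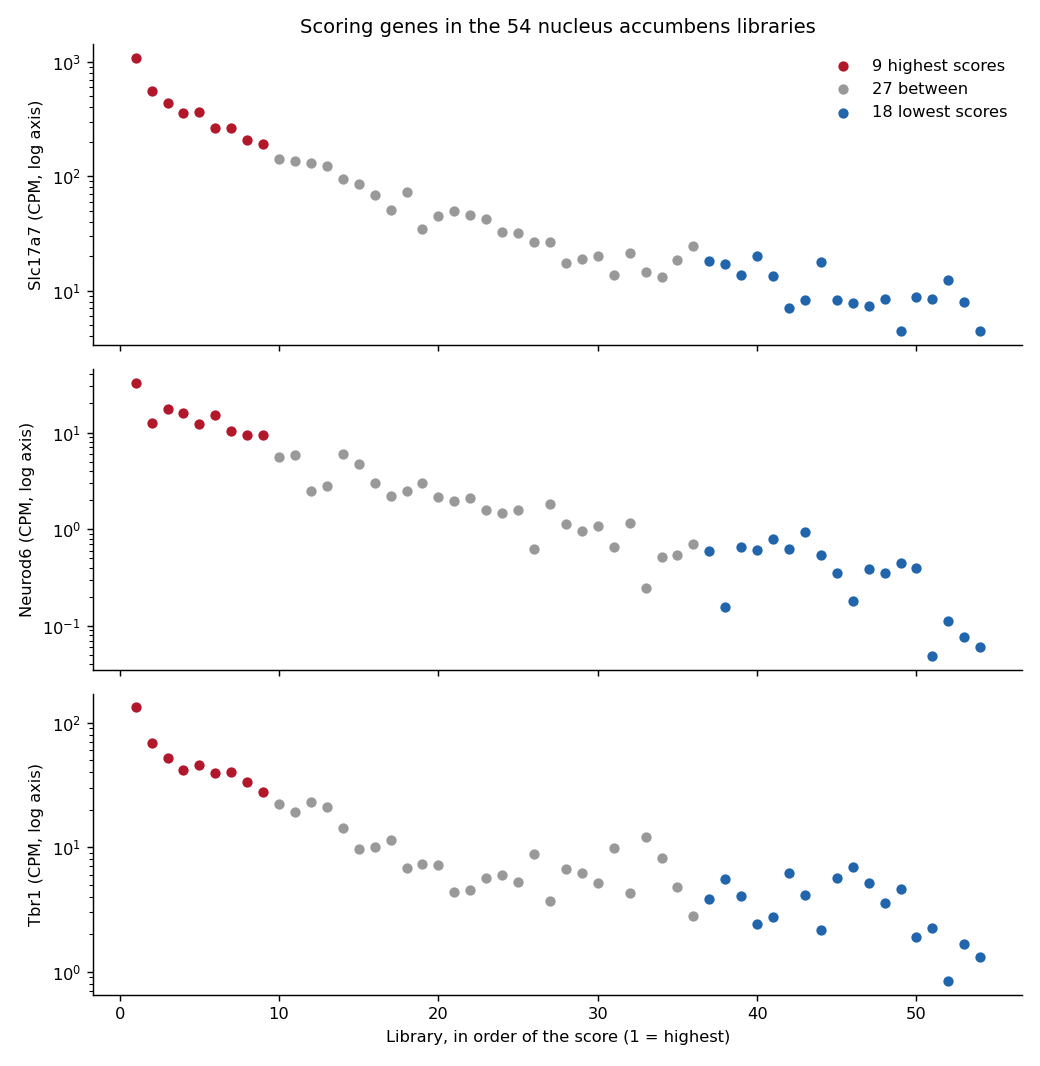
CPM (log axis) of Slc17a7, Neurod6 and Tbr1 in each of the 54 libraries, in order of the score; each point is 1 library. The 9 cortical-rich libraries reach from 190.2 to 1087 CPM of Slc17a7 and the 18 cortical-poor ones from 4.41 to 20.03 CPM; the 27 others, at 13.1 to 142 CPM, partly share the cortical-poor range.

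The contrast asked which other transcripts went with these 3. Because the libraries were chosen by cortical transcripts, its folds and counts are a description, from an edgeR fit with group as covariate, and carry no test here. Of 22588 genes, 745 (3.3%) were higher and 294 (1.3%) lower in cortical-rich libraries at an adjusted p under 0.05, with the 3 scoring genes left out. The median log2 fold change over all genes was -0.01, that of the higher genes 0.51 and that of the lower genes -0.49. A log2 change over 1 was seen for 205 of the higher genes, and one below -1 for 65 of the lower genes. The 9 libraries lay wholly above the 18 for 74 genes (0.328%) and wholly below them for 0 genes (0.0%). The count of 1039 rested heavily on single libraries: it was 326 without replicate 6 of the PAE-VEH males at P42, 633 without replicate 2 of the FCL-VEH females at P90, and 1832 without replicate 3 of the FCL-VEH females at P42.

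The transcripts with the largest folds included several of cortical projection neurons. Tfap2d, an AP-2 family transcription factor, was higher by 5.59 ± 0.65 (log2, SE), at 1.05 to 9.49 CPM in cortical-rich and 0 to 0.258 CPM in cortical-poor libraries. Neurod2 (chromosome 10, 83820092 to 83824277) was higher by 5.17 ± 0.30, at 7.81 to 33.8 CPM against 0.160 to 1.12 CPM in cortical-poor libraries. Rtn4rl2, a Nogo receptor homologue, was higher by 5.03 ± 0.36, at 4.13 to 27.3 CPM against 0.125 to 0.792 CPM in cortical-poor libraries. In none of these 3 genes did a cortical-rich library fall within the cortical-poor range, as for 0.328% of all genes. Slc30a3, which loads zinc into glutamatergic vesicles, was higher by 4.52 ± 0.45, at 7.47 to 103.7 CPM against 0.560 to 4.14 CPM in cortical-poor libraries. Cck, the neuropeptide cholecystokinin, was higher by 3.52 ± 0.19, at 46.6 to 188.6 CPM against 5.23 to 11.2 CPM. It had the highest level per length of these, with a mean of 92.3 CPM per kb in cortical-rich and 8.39 CPM per kb in cortical-poor libraries. Others of the 12 largest were Trim54, a tripartite-motif protein (4.52), Prss12, the synaptic protease neurotrypsin (3.85), Emx1, a homeobox gene of the dorsal telencephalon (3.70), the Wnt agonist Rspo3 (3.49), the matricellular protein Ccn3 (3.40) and the complexin Cplx3 (3.37). Trim54 alone among the 12, which were picked by their fold, overlapped between the sets. In 9 of 9 cortical-rich libraries, each of the 12 exceeded the median of its own group's libraries that were not cortical-rich. The choice of these genes by fold made this likely.

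The list of excitatory cortical identity showed the same across 18 further genes. Of them 15 (83.3%, beside 3.3% of all genes) were higher and 0 lower. The median log2 fold change was 1.36, beside -0.01 over all genes. For 9 of the 18 the sets did not overlap, as for 0.328% of all genes. The summed level was 3875 to 6042 CPM in cortical-rich and 2522 to 4530 CPM in cortical-poor libraries. Beside Neurod2, Slc30a3 and Emx1 named above, Neurod1 was higher by 3.38 ± 0.54. Nrn1, which encodes neuritin, was higher by 2.70 ± 0.35, at 9.53 to 80.5 CPM against 1.69 to 6.90 CPM in cortical-poor libraries. Rtn4r, the Nogo receptor, was higher by 2.60 ± 0.25, at 7.42 to 33.04 CPM against 1.67 to 4.62 CPM. Other members had small folds. Camk2a, the calcium/calmodulin kinase of excitatory synapses, was higher by 0.40 ± 0.10. It stood at 1987 to 3240 CPM in cortical-rich and 1199 to 2281 CPM in cortical-poor libraries. Nrgn (0.42 ± 0.16), Camkv (0.19 ± 0.09) and Itpka (0.33 ± 0.12) did not pass. Without replicate 6 of the PAE-VEH males at P42, 11 of the 18 were higher and 0 lower.

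**Figure D2:**
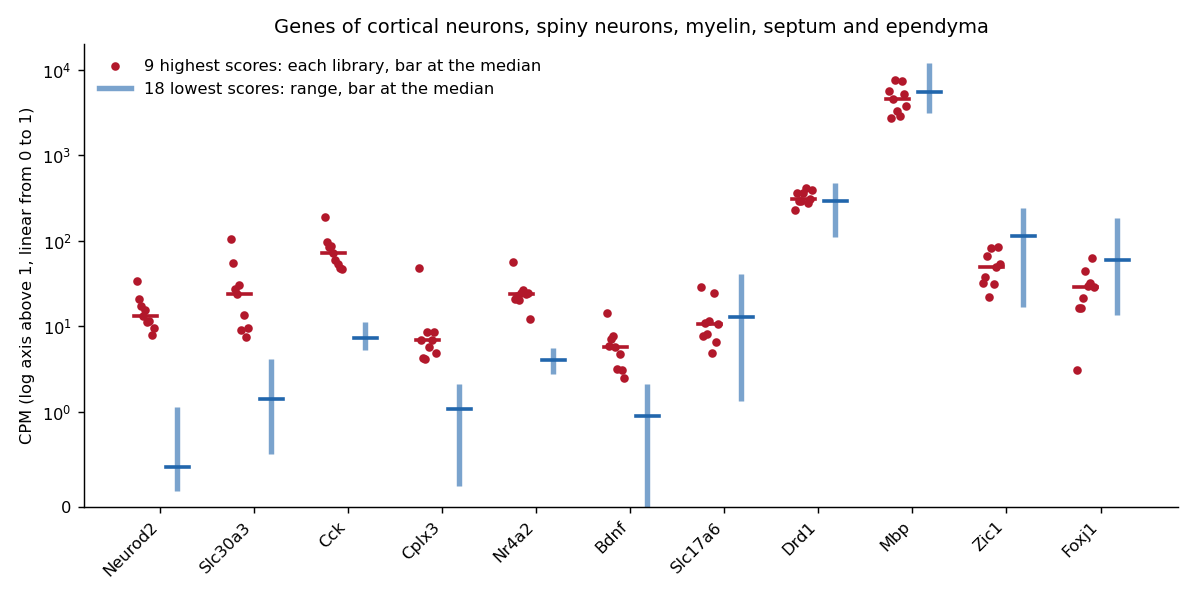
CPM of 11 genes (log axis above 1, linear from 0 to 1): points are the 9 cortical-rich libraries with a bar at their median, and thick lines give the range of the 18 cortical-poor libraries with a bar at theirs. The cortical genes at the left lie apart, as for Cck at 46.6 to 188.6 CPM against 5.23 to 11.2 CPM, while Slc17a6, Drd1, Mbp, Zic1 and Foxj1 overlap.

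In each list of genes of single cortical layers 1 to 3 genes were higher, beside 3.3% of all genes. In the upper-layer list 1 of 10 (10%) was higher, Cux2 by 0.51 ± 0.14, with 0 lower and a list median of 0.06. It stood at 27.1 to 65.8 CPM in cortical-rich and 23.2 to 44.4 CPM in cortical-poor libraries. In the layer 5 list 2 of 12 (16.7%) were higher, with a median of 0.21: Fezf2, which specifies subcortical projection neurons, by 1.32 ± 0.16 and the natriuretic peptide receptor Npr3 by 1.43 ± 0.41. Parm1 (8.33% of that list, beside 1.3% of all genes) was lower, by -0.62 ± 0.17. This call was lost when any of 5 of the 9 libraries was left out. In the list of layer 6 and subplate 3 of 11 (27.3%) were higher and 0 lower, with a median of 0.14. These were Cplx3 of the subplate (3.37 ± 0.31), the matricellular protein Ccn2 (1.60 ± 0.25) and Rprm (1.38 ± 0.27). With each of the 9 libraries left out in turn, 0 to 2 upper-layer, 1 to 2 layer 5 and 3 to 4 layer 6 genes were higher. Tle4 (0.08 ± 0.08) and Foxp2 (0.06 ± 0.12) of the layer 6 list had values near 0. The summed levels of all 3 layer lists overlapped. For the upper layers they were 812.8 to 985.7 CPM in cortical-rich and 741.9 to 954.6 CPM in cortical-poor libraries. For layer 6 and subplate the median sum was 676.8 CPM in cortical-rich and 645.1 CPM in cortical-poor libraries. The layer lists are thus not transcripts of cortical neurons alone in this tissue, and which other cells held them was not tested.

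Other glutamatergic territories were read in the same way. Of 7 genes of claustrum and endopiriform nucleus, 4 (57.1%, beside 3.3% of all genes) were higher and 0 lower, with a median of 0.66. Nr4a2, a nuclear receptor, was higher by 2.77 ± 0.18, at 12.2 to 56.4 CPM in cortical-rich and 2.79 to 5.53 CPM in cortical-poor libraries. Ntng2, the axonal protein netrin G2, was higher by 1.73 ± 0.13, at 20.98 to 46.5 CPM against 6.87 to 11.7 CPM, and neither gene overlapped, as for 0.328% of all genes. Lxn (0.82 ± 0.12) and Smim32 (0.66 ± 0.17) passed with overlap. Among 5 genes of olfactory bulb projection neurons, 4 were tested. Cdhr1 (25% of those tested, beside 3.3% of all genes) was higher by 1.02 ± 0.18. Tbx21, which defines mitral and tufted cells, stood at 0 to 0.132 CPM in cortical-rich and 0 to 0.333 CPM in cortical-poor libraries. Of 8 hippocampal genes 6 were tested, 0 were higher and 1 was lower (16.7%, beside 1.3% of all genes). The median of that list was -0.28. Prox1, which marks granule cells of the dentate gyrus, was at 8.07 to 24.2 CPM in cortical-rich and 15.3 to 37.4 CPM in cortical-poor libraries (-0.47 ± 0.16, not past the threshold), and Fibcd1 was lower by -0.51 ± 0.11. Slc17a6 (VGLUT2), the vesicular glutamate transporter of thalamus and other subcortical neurons, did not follow Slc17a7. It ran from 4.84 to 28.4 CPM with a median of 10.6 in cortical-rich, and from 1.34 to 40.8 CPM with a median of 12.7 in cortical-poor libraries (-0.40 ± 0.48). In its list of 5 genes 0 were higher and 1 (20%, beside 1.3% of all genes) was lower. That gene was Calb2, a calcium buffer, at -1.13 ± 0.27. Without replicate 6 of the PAE-VEH males at P42, 0 hippocampal and 0 thalamic genes were lower.

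Peptide and interneuron genes gave a mixed pattern. Of 15 neuropeptides 4 (26.7%, beside 3.3% of all genes) were higher and 0 lower, with a median of 0.26: Cck, Vip (2.20 ± 0.23), Cort (1.92 ± 0.36) and Npy (0.67 ± 0.13). Vip, a peptide of cortical interneurons, stood at 3.28 to 17.6 CPM in cortical-rich and 0.851 to 3.29 CPM in cortical-poor libraries. Of 14 interneuron genes 2 (14.3%) were higher, Vip and Npy, and 2 (14.3%) were lower, beside 3.3% and 1.3% of all genes. The lower ones were Gad2 (-0.42 ± 0.08) and Gad1 (-0.23 ± 0.06), the enzymes that make GABA. Gad2 was at 211 to 393 CPM in cortical-rich and 345 to 475 CPM in cortical-poor libraries. In 9 of 9 cortical-rich libraries it was below the median of its own group's libraries that were not cortical-rich. The count of lower genes was 1 to 4 with each of the 9 libraries left out in turn. Sst (0.26 ± 0.14) and Pvalb (0.62 ± 0.52) did not pass.

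Bdnf led the activity-induced genes. Of 18 activity-induced and neurotrophin genes 4 (22.2%, beside 3.3% of all genes) were higher and 0 lower, 17 had folds above 0, with a median of 0.22. Bdnf, a neurotrophin that cortical neurons make and carry to the striatum along their axons, was higher by 2.81 ± 0.46. It stood at 2.46 to 14.3 CPM in cortical-rich and 0 to 2.11 CPM in cortical-poor libraries, without overlap, as for 0.328% of all genes. Nptx2, a secreted pentraxin of excitatory synapses, was higher by 1.36 ± 0.18, Ptgs2 by 0.76 ± 0.18 and Nr4a3 by 0.70 ± 0.17. Without the PAE-VEH male with the highest score 2 of the 18 passed. The immediate early gene Fos was at 5.23 to 25.2 CPM in cortical-rich and 4.11 to 21.3 CPM in cortical-poor libraries (0.39 ± 0.23, not past the threshold). Of 19 glutamate receptor genes 3 (15.8%) were higher and 0 lower, namely Grm2 (0.82 ± 0.22), Grin2a (0.57 ± 0.14) and Grik5 (0.22 ± 0.05), and the median was -0.04. Without that male 1 passed. Of 12 serotonin receptor genes 0 were higher and 1 (8.33%, beside 1.3% of all genes) was lower. That gene was Htr7, at -0.87 ± 0.23, a call lost when any of 6 of the 9 libraries was left out.

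Several transcripts of septum and pallidum were lower in the cortical-rich libraries. Of 9 genes in that list 4 (44.4%, beside 1.3% of all genes) were lower and 0 higher, with a median of -0.93, and all 9 had folds below 0. Zic1, a zinc finger factor of the septum, was lower by -1.10 ± 0.32, at 22.2 to 84.3 CPM in cortical-rich and 16.6 to 241.9 CPM in cortical-poor libraries. The channel gene Trpc4, at 13.9 to 36.8 CPM in cortical-rich and 11.5 to 86.6 CPM in cortical-poor libraries, the ventral forebrain factor Nkx2-1 (-0.95 ± 0.17) and Dlk1 (-0.93 ± 0.27) were also lower. The sets overlapped for each of the 4, and the count fell to 1 when any of 6 of the cortical-rich libraries was left out, the PAE-VEH male with the highest score among them. The 12 genes with the largest folds below 0 were led by Dnaaf3, a factor that assembles the dynein arms of cilia (-1.89 ± 0.47), and Tnnt1, a troponin T (-1.84 ± 0.47). Dnaaf3 stood at 1.06 to 17.7 CPM in cortical-rich and 4.06 to 99.98 CPM in cortical-poor libraries. The list held 2 subunits of GABA-A receptors, Gabrq (-1.45 ± 0.35) and Gabre (-1.41 ± 0.36), the glycine receptor subunit Glra1 (-1.59 ± 0.42), and the growth factor Fgf10 (-1.42 ± 0.30). Ano2 (-1.65), Tdrd5 (-1.47), Baiap3 (-1.42), C5h1orf94 (-1.38) and Lbhd2 (-1.37) were also among them, and all 12 overlapped between the sets. The 8 genes of ependymal cilia had a median of -1.10 and folds below 0 in every case, but 0 passed; their sum was 19.3 to 256.2 CPM in cortical-rich and 51.4 to 607.9 CPM in cortical-poor libraries. Their part in the cortical result was not tested.

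Markers of the accumbens' own neurons did not separate the sets. Of 22 spiny neuron genes 0 passed in either direction, but 20 had folds above 0, with a median of 0.17 and a sum of 7841 to 13720 CPM in cortical-rich and 4487 to 16010 CPM in cortical-poor libraries. Drd1, the dopamine receptor of direct-pathway spiny neurons, ran from 229.7 to 409.2 CPM in cortical-rich and from 110 to 469 CPM in cortical-poor libraries (0.20 ± 0.19). Drd2, the receptor of indirect-pathway neurons, ran from 103.8 to 220.3 CPM against 62.0 to 236 CPM (0.18 ± 0.18), and the opioid peptide gene Penk from 629 to 1127 CPM against 560.5 to 1299 CPM (0.05 ± 0.14). No cortical-rich library lacked a defining marker of the labelled tissue. Of 10 astrocyte, 10 myelin, 7 precursor, 9 microglial and 8 vascular genes, 0 passed in either direction. Their medians were 0.00, -0.33, -0.24, -0.00 and 0.29; all 10 myelin and all 7 precursor genes had folds below 0 and all 8 vascular genes above 0. The myelin sum was 6179 to 16710 CPM in cortical-rich and 7331 to 30230 CPM in cortical-poor libraries. Of 9 choroid plexus genes 1 (11.1%, beside 1.3% of all genes) was lower, the factor Otx2 (-0.93 ± 0.26). With each of the 9 libraries left out in turn 0 to 2 of these genes were lower. Their sum, carried by Ttr, was 23.8 to 3697 CPM in cortical-rich and 41.3 to 1632 CPM in cortical-poor libraries. The part of these cell types in the result was not tested.

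Transcripts of the fibroblasts of the meninges, the membranes that cover the brain, were also higher. They were read from a list of 17 genes written after the folds had been seen, so its counts are no independent evidence. Of the 17, 8 were higher, beside 3.3% of all genes, and 0 lower, all 17 had folds above 0, and the median was 1.74. Osr1, an odd-skipped transcription factor, was higher by 3.03 ± 0.81, Slc6a13, a GABA and taurine transporter, by 2.04 ± 0.59, Serpinf1, a secreted serpin, by 1.999 ± 0.50, and Col1a1, a chain of type I collagen, by 1.67 ± 0.46. All 17 overlapped between the sets, and the sum was 54.3 to 1282 CPM with a median of 126.3 in cortical-rich, and 34.4 to 309.5 CPM with a median of 78.9 in cortical-poor libraries. The highest sum was that of replicate 6 of the PAE-VEH males at P42, and the next, 413.4 CPM, that of replicate 7 of the FCL-VEH females at P90. Without that male 0 of the 17 were higher and the median was 0.94; without each of the other 8 cortical-rich libraries 2 to 12 were higher. In the 27 libraries between, slopes on the score were above 0 for 6 and below 0 for 11 of the 17, and 0 passed. The part of meningeal transcripts in the folds of other genes was not tested.

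**Figure D3:**
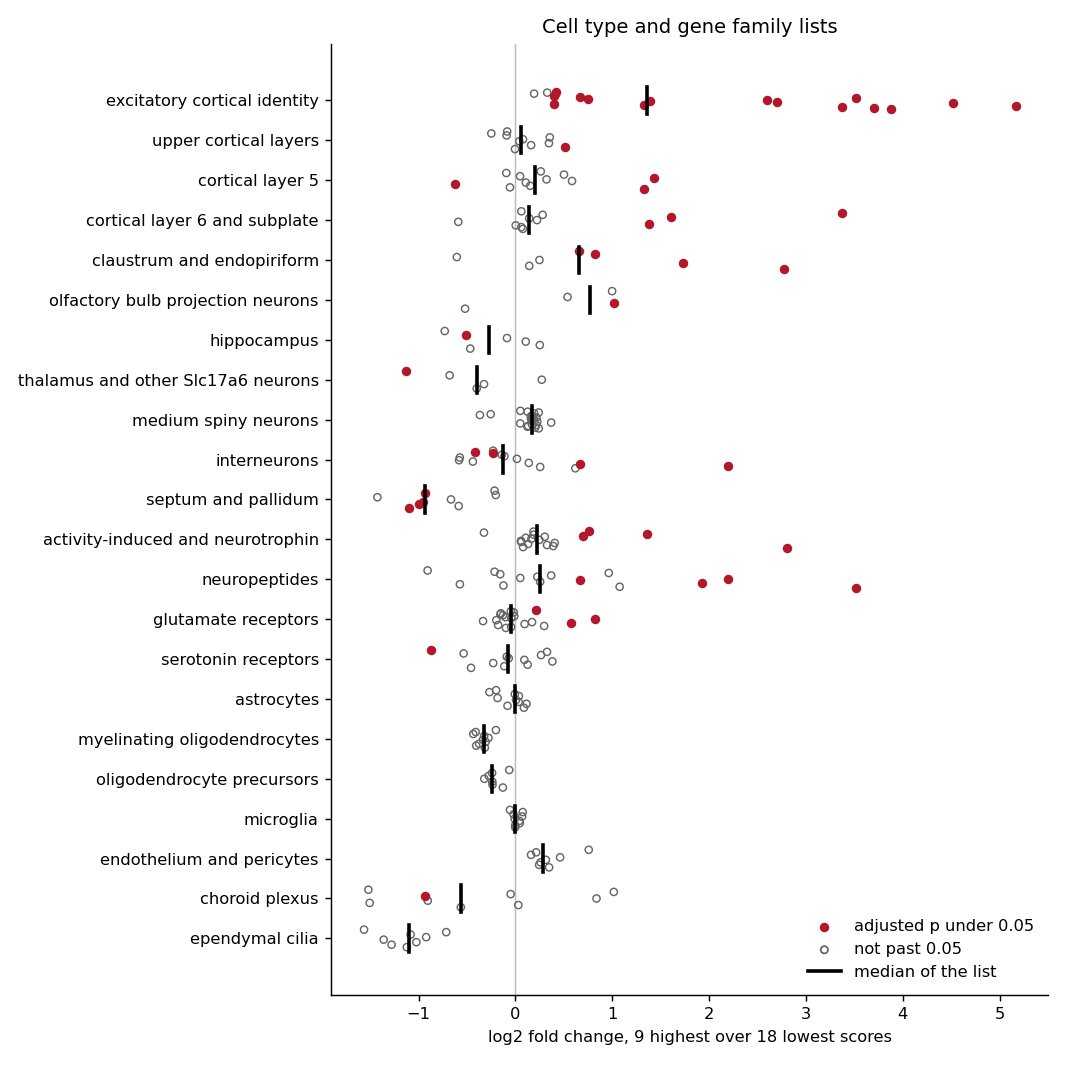
log2 fold change of cortical-rich over cortical-poor libraries for the tested genes of 22 lists; each point is a gene, filled where its adjusted p was under 0.05, and the black bar is the list's median. The excitatory identity list reaches 5.17 with a median of 1.36, septum and pallidum has a median of -0.93, and spiny neuron and glial genes are open points.

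Among the 9 libraries, replicate 6 of the PAE-VEH males at P42 stood out for many cortical transcripts. It was the highest of the 9 for Slc17a7, Neurod6, Tbr1 and each of the 12 largest genes. For Slc17a7 it exceeded the next library 1.94-fold, 1087 CPM beside 561.3 CPM, and for Tbr1 1.95-fold. Genes of the layer 6 and subplate list went both ways in it, with examples picked after being seen. Cplx3 exceeded the next library 5.54-fold (47.9 beside 8.64 CPM), Rprm 3.93-fold (66.2 beside 16.9 CPM) and Ccn2 2.64-fold (44.5 beside 16.8 CPM). Syt6 (47.25 CPM), Crym (122.1 CPM) and Tle4 (136.4 CPM) of the same list were the lowest of the 9, and the sum of that list, 656.2 CPM, lay within the 623.1 to 778.9 CPM of the others. The neuropeptide receptor gene Qrfpr of the layer 5 list was at 10.2 CPM there and at most 1.98 CPM in the others. The same library had the lowest of the 9 values for Drd1, 229.7 CPM, and for Foxj1, a master factor of motile cilia, 3.10 CPM. Its sum of spiny neuron genes, 7841 CPM, was also the lowest of the 9. Whether the low values in the layer 6 list went with that sum was not tested.

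Across the other 8 libraries, transcripts did not keep one proportion. Slc30a3 was at 54.2 CPM in replicate 2 of the FCL-VEH females at P90 and at 7.47 to 30.1 CPM in the rest. Among these 8, Cdhr1 reached 54.3 CPM, with its lowest value, 12.6 CPM, in the PAE-AAE female. The same library held 3620 CPM of Ttr, the transthyretin of choroid plexus, 10.5-fold above the next. Slc17a6 was highest of these 8 in replicate 1 of the FCL-VEH males at P42 (24.3 CPM), near the 28.4 CPM of the PAE-VEH male.

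**Figure D4:**
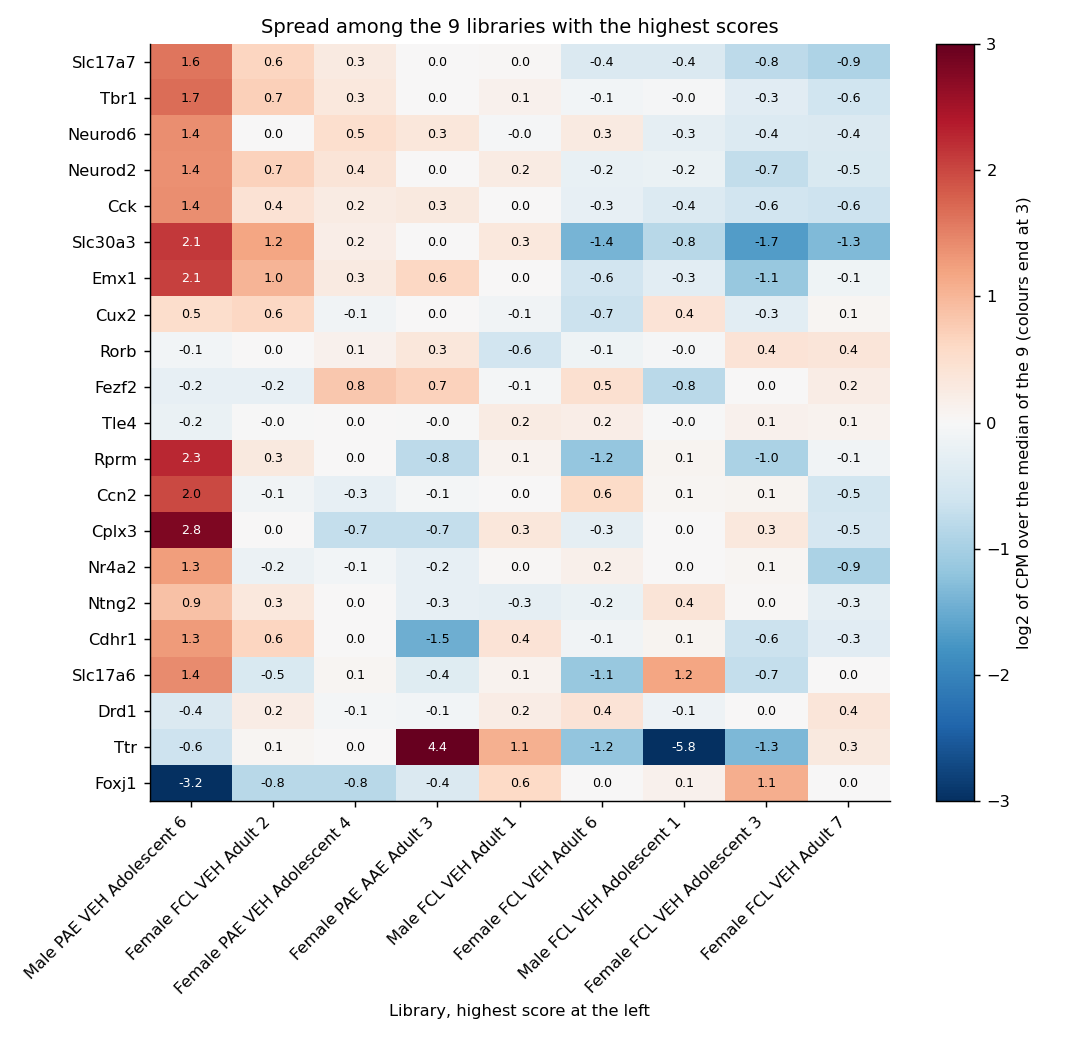
log2 of the CPM of 21 genes over the median of the 9 cortical-rich libraries, with the highest score at the left; numbers in the cells are these values and colours end at 3. Replicate 6 of the PAE-VEH males at P42 stands out for many cortical genes, with 1087 CPM of Slc17a7, and replicate 3 of the PAE-AAE females at P90 for Ttr, with 3620 CPM.

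The 27 libraries between were in neither side of the contrast, but they were set apart by the same score. Their scores ran from 2.46 to 4.80, and a slope per unit of score was fitted with group as covariate (edgeR, Benjamini-Hochberg over 19710 genes). The slopes thus show which other transcripts went with the scoring genes there, and their p-values are no independent test of the contrast. With the scoring genes left out, 5 genes (0.0254%) increased with the score and 0 decreased at an adjusted p under 0.05, and 678 had an unadjusted p under 0.05. DESeq2 called 42, of which 18 increased and 24 decreased with the score, so the single direction held in edgeR only. Among the 5 of edgeR were Neurod2 (log2 slope 1.77 ± 0.20, adjusted p 9.995e-05), Rtn4rl2 (1.40 ± 0.19, 0.00179), Slc30a3 (1.30 ± 0.19, 0.00211) and Cck (0.92 ± 0.14, 0.00584). All 5 were among the 12 with the largest fold in the contrast. Of the others of these 12, Prss12 (0.82 ± 0.19, adjusted p 0.333) and Emx1 (0.92 ± 0.22, 0.359) did not pass, and Tfap2d was too low to be tested. Bdnf had a slope of 0.17 ± 0.27 (adjusted p 0.999). With a slope below 0, Itgb8 was among the genes nearest to passing (-0.17 ± 0.04, adjusted p 0.670) and did not pass.

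Most genes of the contrast kept their direction in these 27 libraries. The slopes used the same score, and the gene lists were chosen with earlier results known, so the counts below are a description. Of the 745 higher genes 706 were tested there, with 546 slopes above 0 and 160 below. At an unadjusted p under 0.05 stood 76 above 0 and 1 below. Of the 294 lower genes 286 were tested, with 242 slopes below 0 and 44 above, and 29 below and 0 above at p under 0.05. Over all 19710 genes 10381 slopes were above and 9329 below 0, and 407 and 271 at p under 0.05. Single slopes were small, with a median of 0.04 for the higher and -0.08 for the lower genes. All 18 members of the excitatory identity list had slopes above 0, with a median of 0.28 beside 0.00 for all genes. Of them 4 passed, beside 0.0254% of all genes. All 9 genes of septum and pallidum had slopes below 0, with a median of -0.28, and 0 passed. The 22 spiny neuron genes had a median of 0.03 and the 9 choroid plexus genes of -0.71, and 0 passed in either list. The part of septal and plexus transcripts in the slopes was not tested.

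**Figure D5:**
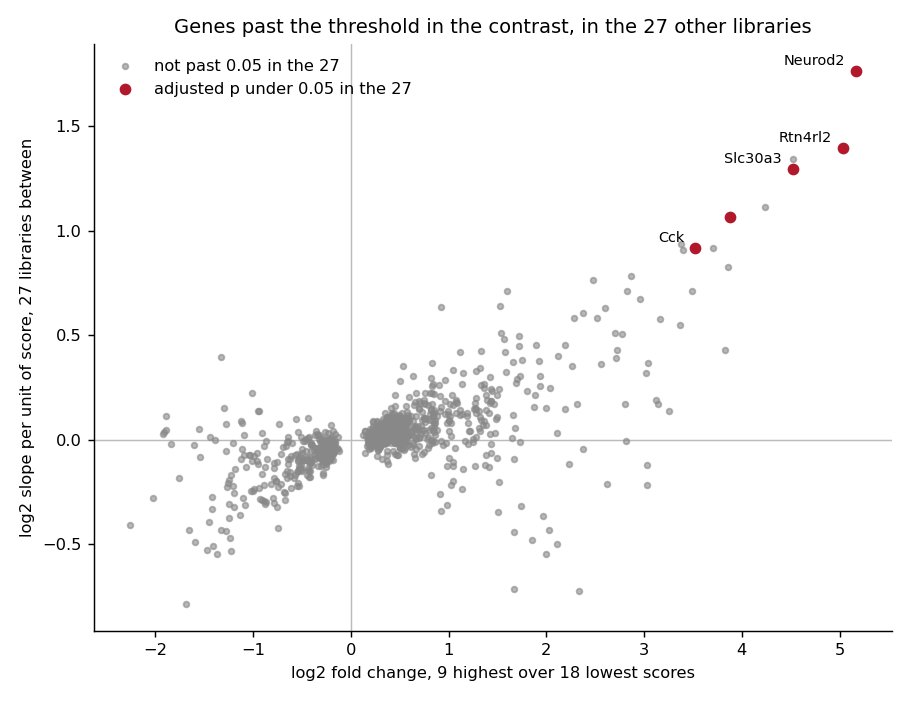
Each point is 1 of the 992 genes past the threshold in the contrast that were also tested in the 27 libraries between; the x axis is the log2 fold change of cortical-rich over cortical-poor libraries and the y axis the log2 slope per unit of score. The 5 genes past an adjusted p of 0.05 in the 27 lie at the upper right, led by Neurod2 with a slope of 1.77.

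Over all 54 libraries the transcripts most like the score were mainly the same. With both centred on their group means, log2(CPM + 1) of Neurod2 had a Pearson r of 0.98 and a Spearman rho of 0.94, and r was 0.97 without the 2 libraries farthest from the median score. Rtn4rl2 (0.95), Cck (0.95), Slc30a3 (0.94), Prss12 (0.93) and Rspo3 (0.93) were next by r among the genes reported. They were followed by the neurexin ligand Nxph3 (0.92), the vesicle fusion protein Stx1a (0.92) and the pentraxin receptor Nptxr (0.92). These are descriptions over libraries that include the 9, and the points share the tissue and the range of sequencing depth. Stx1a was higher by 1.45 ± 0.16, at 45.5 to 168 CPM in cortical-rich and 22.7 to 38.2 CPM in cortical-poor libraries.

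Cortical-rich libraries fell in both exposures, and the scoring genes did not differ between the study's groups past an adjusted p of 0.05 in any of 6 comparisons (edgeR, over all genes). Each group held at most 3 cortical-rich libraries. At P42, Slc17a7 averaged 146 ± 355 CPM in PAE-VEH males and 90.2 ± 82.0 CPM in FCL-VEH males (SD, n = 9 each), a log2 difference of 0.80 ± 0.95 with an adjusted p of 0.850. Replicate 6 of these PAE-VEH males alone had 1087 CPM. Without the cortical-rich library of each group, Slc17a7 averaged 28.6 ± 41.5 CPM in PAE-VEH males and 68.2 ± 52.2 CPM in FCL-VEH males (SD, n = 8 each), a log2 difference of -1.23. The log2 difference of Neurod6 was 0.21 with all libraries and -2.23 without them. Both directions turned, but the libraries left out had been chosen by these same transcripts, so the second values are a description with no test. Of the 9 PAE-VEH males 6 were cortical-poor and 1 cortical-rich, while of the 9 FCL-VEH males 2 were cortical-poor and 1 cortical-rich. In FCL-VEH females Slc17a7 averaged 136 ± 198 CPM at P90 (n = 8) and 53.3 ± 72.99 CPM at P42 (n = 7), a difference of 1.495 ± 0.99 with an adjusted p of 0.461. Without the 3 cortical-rich libraries at P90 and the 1 at P42 the averages were 14.9 ± 15.55 CPM at P90 (n = 5) and 27.6 ± 29.04 CPM at P42 (n = 6), a log2 difference of -0.86, again a description with no test.

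The exposure comparisons gave no call in edgeR, with or without the cortical-rich libraries. PAE-VEH over FCL-VEH at P42 gave 0 genes (0.0%) in males and in females, with all libraries and without the cortical-rich ones. At an unadjusted p under 0.05 there were 2217 and 2786 genes with all libraries, and 2268 and 3194 without. PAE-AAE over FCL-VEH at P90 likewise gave 0 genes (0.0%) in each sex, with 2100 in males and 1015 in females at an unadjusted p under 0.05, against 2736 and 1565 without the cortical-rich libraries. DESeq2 on all libraries called 24 and 79 genes in males and females at P42, and 3 and 6 at P90. The age comparisons of both sexes came from 1 fit over the 30 FCL-VEH libraries, of which 6 were cortical-rich. In FCL-VEH males 610 genes (2.53%) passed with all libraries, 465 higher and 145 lower at P90. Without the 6 cortical-rich libraries, 2 of them male, 1207 passed, 893 higher and 314 lower, and 575 genes were shared. In FCL-VEH females 54 genes were higher and 47 lower at P90, 0.42% of those tested. Without the same 6 libraries, 4 of them female, 68 passed, 44 higher and 24 lower, with 35 shared. With the 2 FCL-VEH libraries whose sex markers went against the label left out of that fit instead, the counts were 322 in males and 43 in females.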

How the data were processed

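Bulk RNA was sequenced from 54 libraries. The authors deposited raw read counts per gene in 1 table, with a gene length column as another measure; 54 further columns of FPKM were not used. Reads were trimmed with fastp and aligned with HISAT2 2.0.5, per the submitters' processing notes. Counter, annotation and build were not given in the sources used here; 45780 of 45785 gene IDs matched GRCr8 with the same start and end. Per the labels' protocols, libraries carried no strand, so a gene and its antisense partner share reads, and RIN averaged 7.2. The 720 rows without a name, 0.271 to 0.412% of counts, were left out of totals and tests. Total counts ran from 58.8 to 103.5 M with a median of 72.2 M. SEs and p-values come from the spread between libraries.

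CPM were taken per total count. Fits used edgeR 4.0.16 in R 4.3.3 (TMM, default filter on low counts, quasi-likelihood F test, two-sided) with Benjamini-Hochberg adjustment and a threshold of 0.05. Only the fit of the contrast was run on simulated counts, which had less spread between libraries than the real ones and no differences between groups. In the contrast 23194 low genes were not tested. The alternatives were RLE size factors, no filter, DESeq2 1.42.0, other library sets and covariates, and leaving out single libraries. Replicate numbers follow accession order. The members, the 22 gene lists and the tests were chosen with earlier results of these data known, and a list of meningeal fibroblasts was added after the folds were seen. Named genes were the 12 higher and 12 lower with the largest fold among those past the threshold with a mean of at least 1 CPM and no locus-style symbol, up to 4 members a list, 5 a direction in the slope, the 10 most like the score, and Bdnf, Fos, Drd1, Drd2, Penk and Slc17a6. Some genes that this rule named are not reported here. Further values, such as those on the spread among the 9 libraries, were picked after being seen.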

Additional observations from a re-analysis of the deposited data

Results flagged for a closer look

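In 32 checks of 4 measures in 8 groups for a library far from its group, 9 found one, each a cortical-rich library that was the highest of its group. Such a check finds about 1 in 20 groups by chance, but these measures chose the libraries and the score is the mean of the other 3, so the 9 are a description and are not set against that rate. All values here are on the log2(CPM + 1) scale, and the score is their mean over the 3 genes. In the 4 PAE-VEH females at P42, replicate 4 stood apart in the score (6.243), Slc17a7 (8.774), Neurod6 (4.224) and Tbr1 (5.731). In the 5 PAE-AAE females at P90, replicate 3 stood apart in the score (5.996), Neurod6 (4.079) and Tbr1 (5.415). In the 6 FCL-VEH males at P90, replicate 1 stood apart in Tbr1 (5.551). In the 9 PAE-VEH males at P42, replicate 6 stood apart in Neurod6 (5.082). Why they stood apart was not tested.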

How the results depend on the processing

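The contrast of cortical-rich with cortical-poor libraries gave 1039 genes, and 2028 with DESeq2, 1639 against the other 45 libraries and 3415 with the score as a number over 54 libraries. Leaving out 1 of the 9 libraries gave 326 to 1832. Other normalization, no filter, no covariate, the 6 highest scores and leaving out libraries with contrary sex markers stayed within 1.5 times. Library sizes without choroid plexus genes gave the same 1039 genes. The TMM step offsets such a change of library size, so this setting could hardly alter the count. The slope in the 27 libraries gave 5 genes, all increasing with the score, and 42 with DESeq2, 18 increasing and 24 decreasing. In males at P42 the exposure comparison gave 1 gene with the score as a covariate and 24 with DESeq2. DESeq2, which was run without the edgeR filter, gave 79 in females at P42, and 3 in males and 6 in females at P90. For age, control males gave 1207 without the cortical-rich libraries, 360 without the filter, 1120 with DESeq2 and 322 without the libraries with contrary sex markers, beside 610; control females gave 60, 326 and 43 under the last 3 of these, beside 54 higher and 47 lower. The cause was not tested.

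Of 79 results for named genes, 77 kept their direction in every setting run. The exceptions had values near 0: the log2 fold change of Aif1 was -0.0167 against the other 45 libraries and -0.0201 to 0.152 without single libraries, and that of Penk -0.0432 to 0.124 without single libraries. In 1317 gene settings 1167 kept direction and side of the threshold, 130 lost it and 17 passed it anew.

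No paired analysis was possible because the replicate numbers follow accession order and pair no libraries. The libraries were chosen by their transcripts, no record of the dissection was used here, and low genes such as Tfap2d could not be tested in the 27 libraries.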
